A study of Mus musculus with 20 samples.

Results

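Tnfrsf12a and the platelet-derived growth factor (PDGF) family were followed across the 4 groups of this study of endurance training in mouse skeletal muscle. The members are 6 genes, Tnfrsf12a, Pdgfa, Pdgfb, Pdgfc, Pdgfra and Pdgfrb, and every probe set whose platform annotation gives 1 of these as its only gene symbol was taken, which gave 12 of the 22690 probe sets on the array. The genes were chosen by measured values: Tnfrsf12a and Pdgfa had been among the lower genes when untrained transgenic mice were compared with untrained wild-type mice, and the rest of the family was added by name. That comparison, and those that contain its difference, are therefore described without a test.

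Total RNA labelled with biotin was hybridised to 20 Affymetrix 3' expression arrays, 1 per mouse. There were 5 mice in each of 4 groups, which the titles and source names give as wild-type untrained, wild-type trained, transgenic untrained and transgenic trained. According to the series title the mice over-express MHC-I. The labels used here do not spell out that abbreviation, the construct, the promoter that drives it or the strain, and they give no muscle, sex, age, training protocol or batch. A free-text description calls all 20 samples transgenic and trained, which goes against the titles and source names of all but the trained transgenic group, and it was not used for grouping. Each title names its own mouse (WTUT and WTT or wtt for wild-type untrained and trained, TGUT and TGT for transgenic untrained and trained, with a number), but nothing says how the mice were related or processed, so the p-values measure the spread between these arrays.

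The deposited values are intensities per probe set on a linear scale, and the array medians ran from 156.7 to 174.9. Intensity was converted to log2 after a constant of 66.72 was added, so all log2 differences below are on that scale and understate the changes of dim probe sets. Fibre transcripts were bright on every array: the 12 muscle fibre markers all passed the filter on dim probe sets, and their summed intensity lay between 157504 and 166942. The transgene could not be checked. H2-K1, a histocompatibility class I heavy chain, ranged from 784 to 1753 in wild-type and from 737 to 1750 in transgenic mice. Myh7, the slow myosin heavy chain, ranged from 396 to 2797 in untrained wild-type against 299 to 800.0 in untrained transgenic mice, and from 732 to 2122 in trained wild-type against 332 to 510 in trained transgenic mice, so it was lower in the trained transgenic group without overlap. The H2-K1 ranges of the genotypes overlapped, and Myh7 was not higher in transgenic mice. The sources used here do not say whether a transcript of the transgene would bind either probe set.

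Tnfrsf12a, also called Fn14, is a small receptor of the tumour necrosis factor receptor superfamily whose ligand is the cytokine TWEAK. It signals through TRAF adaptors to NF-kB, is induced by growth factors, and is known in muscle for its rise after injury and denervation. The PDGF chains A to D form dimers that activate the receptor tyrosine kinases encoded by Pdgfra and Pdgfrb. In muscle, Pdgfra is a marker of fibro-adipogenic progenitors and Pdgfrb of pericytes and vascular smooth muscle cells, while endothelial cells are a known source of PDGF-B.

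Tnfrsf12a was lower in transgenic than in wild-type mice, whether they were trained or not. The probe set 1418571_at read 1812, 2258, 3147, 2113 and 3411 in the untrained wild-type mice and 1521, 2186, 1923, 1789 and 2203 in the trained wild-type mice. It read 954, 985, 1403, 1616 and 1498 in the untrained transgenic mice and 1056, 1340, 1254, 862 and 1081 in the trained transgenic mice. Within each training state the genotypes did not overlap. The means were, from high to low, wild-type untrained at 2548 ± 693 (SD, n = 5), wild-type trained at 1924 ± 286, transgenic untrained at 1292 ± 303 and transgenic trained at 1119 ± 186. Neighbours in that order overlapped, including trained wild-type and untrained transgenic mice, where the highest transgenic mouse at 1616 lay above the lowest wild-type mouse at 1521. Myh7 was lower without overlap in trained transgenic mice, while its untrained ranges overlapped (above). The part of Myh7 in the Tnfrsf12a difference was not tested. In bulk muscle, fewer cells of a type and less RNA per cell cannot be told apart.

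The difference within trained mice uses none of the arrays that chose the genes and was tested. The exact permutation test also uses trained arrays alone, while limma took its SE, interval and p from a fit to all 20 arrays. There Tnfrsf12a was 1.68-fold lower in transgenic mice, a log2 difference of -0.75 ± 0.18 (SE, 95% interval -1.12 to -0.38). limma, fitted across all 13575 probe sets past the filter with Benjamini-Hochberg adjustment, gave an unadjusted p of 0.000387 and an adjusted p of 0.138, which does not pass the threshold of 0.05. The exact permutation test of this gene alone gave a two-sided p of 0.00794, the smallest that 5 mice against 5 allow. Only 0.0516% of probe sets (7, all lower) were called in this comparison. Tnfrsf12a was called by an array-weighted fit (adjusted p = 0.0153) and by a fit to the trained groups alone (adjusted p = 0.045), which called 7.48% and 0.192% of all probe sets here, and in 0 of the 20 limma fits that left out 1 array (adjusted p from 0.0585 to 0.378).

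The second Tnfrsf12a probe set, 1418572_x_at, gave nearly the same picture, with a correlation between the probe sets of r = 0.995 over the 20 arrays. Probe sets with this suffix can bind more than 1 transcript. It read 1347, 2118, 1811, 1680 and 1956 in the WTT mice and 850, 1131, 1007, 725 and 872 in the TGT mice, without overlap. The difference was -0.91 ± 0.18, 1.88-fold (limma adjusted p = 0.0712; exact permutation p = 0.00794). In untrained mice, the comparison that chose the gene, the difference was -0.94 ± 0.18 for the first probe set and -1.10 ± 0.18 for this one, and 0.11% of all probe sets were called there.

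Trained mice had lower mean Tnfrsf12a than untrained mice of either genotype, within overlapping ranges. Averaged over genotypes, training gave -0.27 ± 0.12 (limma adjusted p = 0.216; exact permutation p = 0.0543), against 4.99% of probe sets called for training. This contrast holds the untrained arrays that chose the gene, through the mean of both genotypes and not their difference. The untrained spreads were unequal (SD 693 in wild-type and 303 in transgenic mice), so these p-values may not be free of that choice. The estimates were -0.37 ± 0.18 in wild-type mice and -0.18 ± 0.18 in transgenic mice, both without a test. The widest spread was in untrained wild-type mice, where WTUT-136 read 3147 and WTUT-142 read 3411 while the other three lay between 1812 and 2258.

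**Figure D1:**
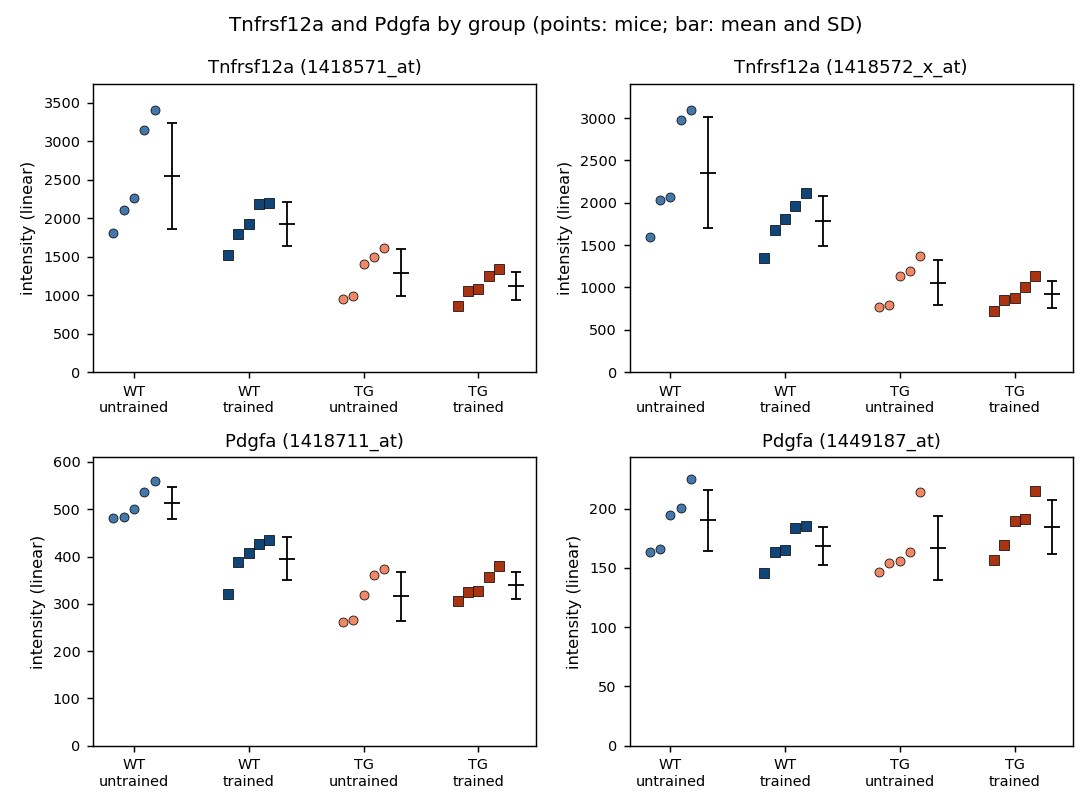
Intensity (linear axis) of both Tnfrsf12a and both Pdgfa probe sets in each mouse, sorted within the 4 groups, with the group mean and SD (n = 5) as a bar beside the points. Tnfrsf12a separated the genotypes in both training states, whereas Pdgfa (1418711_at) was highest in all 5 untrained wild-type mice, at 482 to 560.

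Pdgfa, the A chain and a ligand of PDGF receptor alpha, stood highest in untrained wild-type mice and lower in all other groups. The probe set 1418711_at read 484, 560, 500, 482 and 536 in untrained wild-type mice and 387, 435, 427, 320 and 406 in trained wild-type mice. It read 262, 319, 374, 266 and 361 in untrained and 380, 326, 356, 327 and 307 in trained transgenic mice. No mouse of the other 3 groups reached the lowest untrained wild-type value. The group means were 513 ± 34.3, 395 ± 45.8, 316 ± 52.1 and 339 ± 28.8 in the order just given (SD, n = 5 each), and the 3 lower groups overlapped each other.

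In trained mice Pdgfa was 1.14-fold lower in transgenic mice, a log2 difference of -0.18 ± 0.09 with an interval from -0.37 to 0.00. It did not pass in limma (adjusted p = 0.401) or in the exact permutation test (p = 0.0635). Training averaged over genotypes gave -0.12 ± 0.06 (limma adjusted p = 0.287; exact permutation p = 0.153). As for Tnfrsf12a, this contrast holds the untrained arrays that chose the gene, so these p-values may not be free of that choice. In the untrained comparison that chose it, Pdgfa differed by -0.61 ± 0.09, 1.52-fold, without overlap.

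The training difference of Pdgfa was -0.33 ± 0.09 in wild-type mice and 0.09 ± 0.09 in transgenic mice. The difference between these training effects was 0.42 ± 0.12. Both the wild-type estimate and this interaction hold the untrained wild-type arrays that chose the gene, so they are a description. limma called 0% of probe sets for training in wild-type mice (1069 at an unadjusted p under 0.05), 0.309% for training in transgenic mice and 0% for the interaction (395 at an unadjusted p under 0.05).

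The second Pdgfa probe set, 1449187_at, was dimmer and did not repeat the pattern closely. Its means were 190.0 ± 25.6 and 168 ± 16.2 in wild-type mice without and with training, and 167 ± 27.3 and 184 ± 22.5 in the corresponding transgenic groups, with all ranges overlapping. In trained mice its sign was opposite, 0.09 ± 0.08 (limma adjusted p = 0.677; exact permutation p = 0.246). Without a test, it gave -0.14 ± 0.08 for the transgene in untrained mice, -0.12 ± 0.08 for training in wild-type mice, 0.11 ± 0.08 for training in transgenic mice and 0.23 ± 0.12 for the interaction. The probe sets correlated at r = 0.48 over the 20 arrays.

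The bases upstream of Tnfrsf12a and Pdgfa are shown because these are the members that had been lower together in untrained transgenic mice. They are the 250 bases before an annotated start, from RefSeq (GRCm38.p6), where 4 of the 6 members were matched. The windows are chr17:23677450-23677699 for Tnfrsf12a and chr5:138994945-138995194 for the more upstream of the annotated Pdgfa starts, both on the minus strand and written 5′ to 3′ along the gene. Capitals mark GC boxes (GGGCGG on either strand) and EGR1 motifs (GCGGGGGCG on either strand).
Tnfrsf12a: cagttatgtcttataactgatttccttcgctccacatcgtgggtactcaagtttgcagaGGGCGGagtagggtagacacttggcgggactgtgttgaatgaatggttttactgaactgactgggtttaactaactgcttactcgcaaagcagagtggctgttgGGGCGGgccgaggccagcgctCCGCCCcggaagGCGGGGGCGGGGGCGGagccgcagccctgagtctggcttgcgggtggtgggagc
Pdgfa: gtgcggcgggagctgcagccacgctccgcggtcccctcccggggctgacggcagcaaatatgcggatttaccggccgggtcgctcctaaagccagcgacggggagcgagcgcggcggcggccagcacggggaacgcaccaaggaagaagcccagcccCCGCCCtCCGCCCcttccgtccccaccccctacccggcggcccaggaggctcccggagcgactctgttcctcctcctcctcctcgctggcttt
The Tnfrsf12a window held 5 GC boxes and 2 EGR1 motifs, which overlap each other and 2 of the GC boxes, and its GC content was 58.8%. The Pdgfa window held 2 GC boxes, no EGR1 motif and a GC content of 72.4%. Over 32851 RefSeq stretches of the same length, 32.7% held a GC box and 2.57% an EGR1 motif, and the median GC content was 52.4%. The other motifs searched on both strands were AP-1 (TGANTCA, in 6.75% of stretches), the NF-kB consensus (7.25%), the CArG box (1.47%) and the heat shock element core (GAANNTTC, 6.69%). Of these, 1 NF-kB consensus match lay in the Pdgfa window and none lay in the Tnfrsf12a window. The window of the other annotated Pdgfa start, which is not printed, held 1 GC box, 1 heat shock element core and no NF-kB consensus match, so the Pdgfa matches depend on the start shown. These are matches of letters, and no binding was measured.

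Among the other ligands, Pdgfb, the B chain that binds both receptors, was at similar levels in every group. The probe set 1450414_at read 336, 272, 372, 364 and 236 in untrained and 310, 327, 314, 279 and 288 in trained wild-type mice, and 287, 280, 286, 339 and 288 in untrained and 287, 299, 343, 277 and 327 in trained transgenic mice. All groups overlapped, and the widest spread was in untrained wild-type mice (SD 59.6, against 19.5 to 27.7 in the other groups). The transgene difference in trained mice was 0.01 ± 0.09, with an interval from -0.17 to 0.19 (limma adjusted p = 0.969; exact permutation p = 0.873). Training averaged over genotypes gave 0.00 ± 0.06 (limma adjusted p = 0.988; exact permutation p = 0.960). Its second probe set, 1450413_at, averaged 96.3 and did not pass the filter.

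Pdgfc, the C chain and a ligand of PDGF receptor alpha that is activated by proteolysis, was dim and was not tested. The brighter probe set, 1419123_a_at, ranged from 35.9 to 59.1 in the WTUT mice, from 33.5 to 60.2 in the WTT mice, from 42.7 to 85.5 in the TGUT mice and from 33.6 to 70.4 in the TGT mice. Every group overlapped every other. Its other probe set, 1449351_s_at, averaged 46.1. Pdgfd, the D chain and a ligand of PDGF receptor beta, averaged 25.3 on its only probe set and also stayed below the filter, which lay at about 126.2. The TWEAK ligand gene Tnfsf12 shares both of its probe sets with other gene symbols, so no level is given for it.

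Of the receptors, Pdgfrb was lower in transgenic than in wild-type mice when both were trained. The probe set 1417148_at read 163.6, 155.0, 157.9, 179.1 and 170.0 in the WTT mice and 138.3, 145.7, 136.8, 139.97 and 137.3 in the TGT mice. It read 153.6, 167.2, 144.9, 150.8 and 180.1 in the WTUT mice and 155.6, 155.0, 141.4, 152.8 and 148.9 in the TGUT mice. The trained groups did not overlap, and the untrained groups did. The means were 165 ± 9.70, 159 ± 14.2, 151 ± 5.85 and 139.6 ± 3.63 (SD, n = 5) for wild-type trained, wild-type untrained, transgenic untrained and transgenic trained mice, and each overlapped its neighbour in that order.

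In trained mice the Pdgfrb difference was -0.17 ± 0.04 (interval -0.26 to -0.08), or 1.12-fold. It did not pass in limma (unadjusted p = 0.00113, adjusted p = 0.1997), while the exact permutation test gave the smallest possible p of 0.00794. It was called by the array-weighted fit (adjusted p = 0.0141), which called 7.48% of all probe sets, and in 0 of the 20 limma fits with 1 array left out (adjusted p from 0.0648 to 0.534). Training averaged over genotypes gave -0.02 ± 0.03 (limma adjusted p = 0.805; exact permutation p = 0.518). The estimate was -0.05 ± 0.04 for the transgene in untrained mice, and the interaction was -0.11 ± 0.06, neither with a test.

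The second Pdgfrb probe set, 1436970_a_at, moved with the first (r = 0.88 over the 20 arrays). It read 161, 159, 112.1, 225 and 187 in the WTT mice and 106, 105, 85.8, 112.7 and 89.6 in the TGT mice. Only wtt-137 reached into the transgenic range. The difference was -0.49 ± 0.13, 1.40-fold, and did not pass in limma (adjusted p = 0.210; exact permutation p = 0.0159). All 5 trained transgenic values lie below the filter level of about 126.2, so the mean over all arrays passed through the other groups, and the value is a description that adds no support to the first probe set. Without a test, it gave -0.18 ± 0.13 for the transgene in untrained mice and -0.31 ± 0.19 for the interaction.

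The probe sets of Pdgfra, the alpha receptor, ran against each other (r = -0.39 over the 20 arrays). The probe set 1421916_at read 273, 243, 243, 238 and 201 in untrained and 249, 269, 277, 262 and 257 in trained wild-type mice, and 254, 192, 227, 228 and 200.4 in untrained and 248, 241, 280.3, 246 and 196 in trained transgenic mice. Every pair of groups overlapped. It was higher after training on average, 0.11 ± 0.05 (limma adjusted p = 0.246; exact permutation p = 0.0490), while the probe set 1421917_at gave -0.07 ± 0.04 (limma adjusted p = 0.426; exact permutation p = 0.153). The transgene difference in trained mice was -0.10 ± 0.07 and -0.03 ± 0.06 on these probe sets (limma adjusted p = 0.604 and 0.874; exact permutation p = 0.175 and 0.690).

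**Figure D2:**
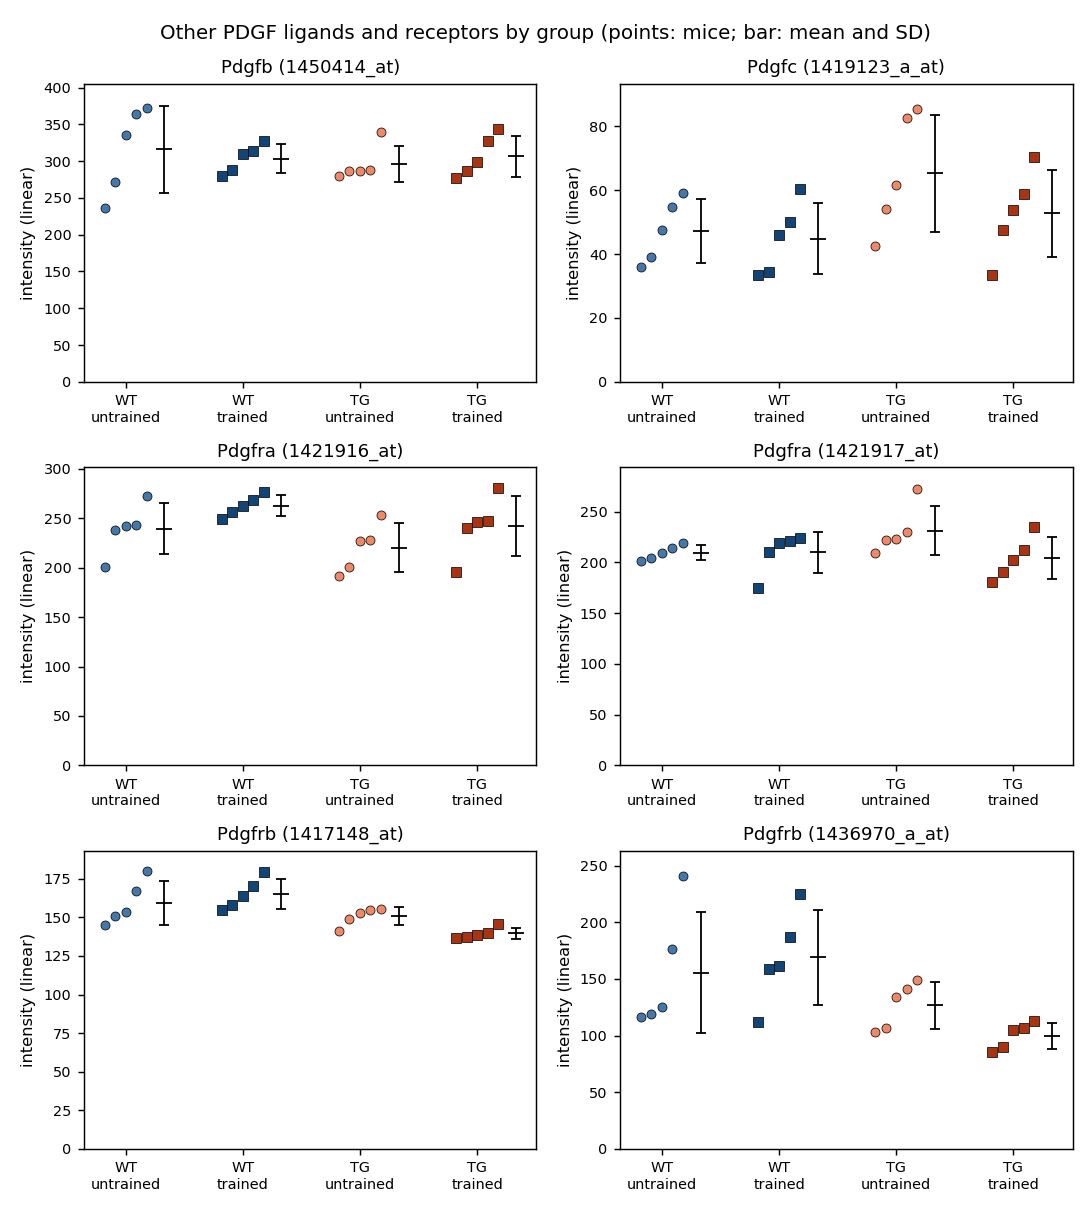
Intensity (linear axis) of the Pdgfb, Pdgfc, Pdgfra and Pdgfrb probe sets named in each panel, per mouse and sorted within group, with the group mean and SD (n = 5) beside the points. On both Pdgfrb panels the trained transgenic mice lie lowest on average, at 139.6 and 99.8, while the Pdgfb means lie between 296 and 316.

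Of the 12 member probe sets, 9 passed the filter, and these stand for 5 of the 6 genes. limma called 0 of the 9 in both tested comparisons. At an unadjusted p under 0.05 there were 4 of the 9 for the transgene in trained mice, where 1692 of all 13575 probe sets were, and 1 of the 9 for training averaged over genotypes, where 2806 were. The 4 are probe sets of only Tnfrsf12a and Pdgfrb, and 1 of them is the dim Pdgfrb probe set 1436970_a_at. In trained mice the genotypes did not overlap for 3 of the 9, both Tnfrsf12a probe sets and Pdgfrb 1417148_at, each with the transgenic mice lower, where 2.55% of all probe sets were without overlap in either direction and 1.69% in that direction. In untrained mice they did not overlap for both Tnfrsf12a probe sets and Pdgfa 1418711_at, against 1.44% of all probe sets, and since that comparison chose the genes nothing is read from it.

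**Figure D3:**
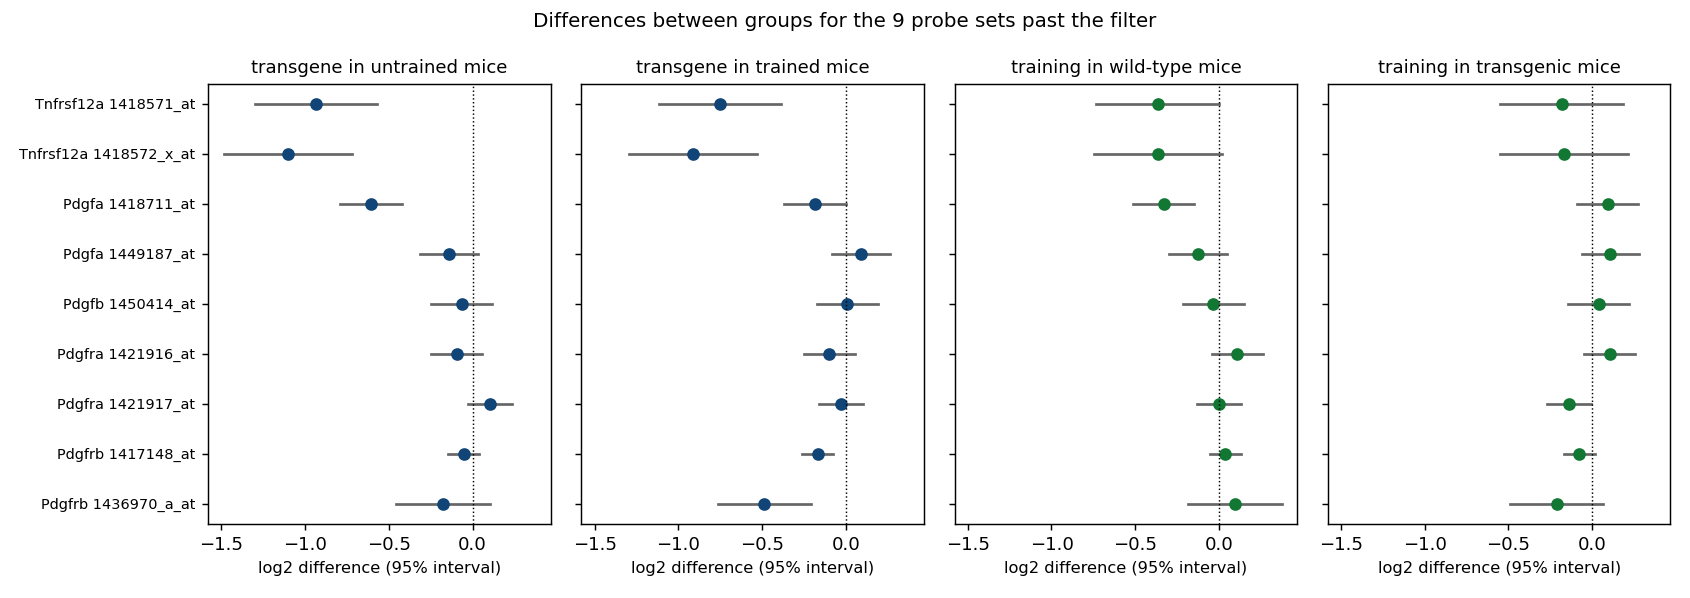
Log2 difference with its 95% interval from the limma fit (horizontal axis) for the 9 member probe sets past the filter, for the transgene in untrained and trained mice and for training in wild-type and transgenic mice. Both Tnfrsf12a probe sets lie left of 0 in both genotype panels (-0.94 and -1.10 untrained, -0.75 and -0.91 trained). Only the differences in the trained genotype panel use none of the arrays of the comparison that chose the genes. The intervals of every panel come from a fit to all 20 arrays.

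Members were also compared with each other from mouse to mouse within groups, after the group means were removed, over all 20 arrays and 10 pairs of genes. Pdgfb and Pdgfrb, a ligand and its receptor, ran in opposite directions (Pearson r = -0.78, permutation p = 0.00194, adjusted 0.0194; Spearman rho = -0.71, permutation p = 0.00528, adjusted 0.0528). Untrained wild-type mice spanned most of this range. WTUT-142 had the lowest Pdgfb of that group (236) with the highest Pdgfrb (180.1), and WTUT-136 the highest Pdgfb (372) with the lowest Pdgfrb (144.9). Without these 2 arrays, which lie farthest from the median, r was -0.59 (adjusted permutation p = 0.205). Without all untrained wild-type arrays it was -0.42 (adjusted permutation p = 0.449), so the call rests on those arrays. Leaving out any 1 of the 5 also took the adjusted permutation p above 0.05, with r changing little for 4 of them. It was -0.77 without WTUT-130 (adjusted permutation p = 0.0690), -0.76 without WTUT-135 (0.0961), -0.73 without WTUT-136 (0.0681) and -0.76 without WTUT-138 (0.0554). It was -0.63 without WTUT-142 (0.114), and -0.78 without WTT-141 (0.0568), which lost the call too. The other probe set of each gene gave r = -0.82 on the same arrays, untrained wild-type mice included (adjusted permutation p = 0.0036). That pair is Pdgfb 1450413_at, which did not pass the filter, and the dim Pdgfrb probe set 1436970_a_at, so it adds no support.

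**Figure D4:**
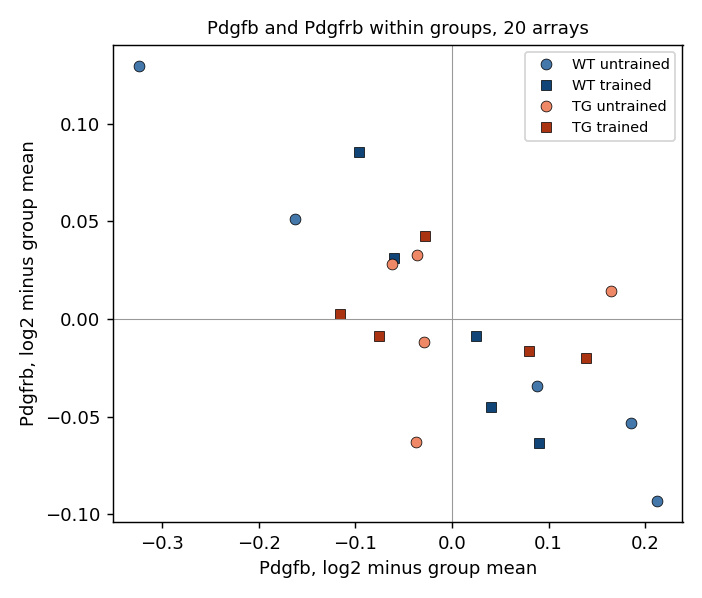
Pdgfb (horizontal axis) against Pdgfrb (vertical axis), each as log2 intensity minus its group mean, with 1 point per array for 20 arrays and the groups by colour and shape. The points slope downward (r = -0.78), and the extremes at both ends of the horizontal axis are untrained wild-type mice.

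No other pair of members passed. Tnfrsf12a and Pdgfa, which had been lower in the same transgenic group, correlated weakly within groups (r = 0.29, rho = 0.27; permutation p = 0.250 and 0.299, adjusted 0.449 and 0.555), and r was 0.25 without the 2 farthest arrays. The remaining 8 pairs had r between -0.32 and 0.36 with adjusted permutation p of 0.449 or more. Genes on the same array share its scaling, and with arrays centred on their medians the r of Pdgfb and Pdgfrb was -0.81.

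The genes whose pattern was most like each member were taken by Pearson r over the 20 arrays among 7902 genes, as a description. For Tnfrsf12a these were Bag3, a co-chaperone of muscle protein turnover (r = 0.92, and 0.79 with group means removed), Slc16a1, a lactate transporter (0.79 and 0.55), Dlgap4 (0.79 and 0.36), Kansl2 (0.78 and 0.33) and Pdgfa (0.77 and 0.29). Bag3 averaged 2797 ± 748, 2174 ± 167, 1902 ± 249 and 1604 ± 91.0 (SD, n = 5) in the WTUT, WTT, TGUT and TGT mice, the same order of groups as Tnfrsf12a. For Pdgfa they were Hspa8, the constitutive heat shock cognate chaperone (0.86 and 0.57), the nuclear export receptor Xpo1 (0.85 and 0.49), the Wnt receptor Fzd7 (0.83 and 0.66), Zfp275 (0.83 and 0.64) and Slc25a36 (0.82 and 0.63). Hspa8 averaged 6288 ± 338, 5617 ± 393, 4930 ± 366 and 5394 ± 325 in the same 4 groups. As with Pdgfa, the untrained wild-type mice were highest and the untrained transgenic mice lowest.

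**Figure D5:**
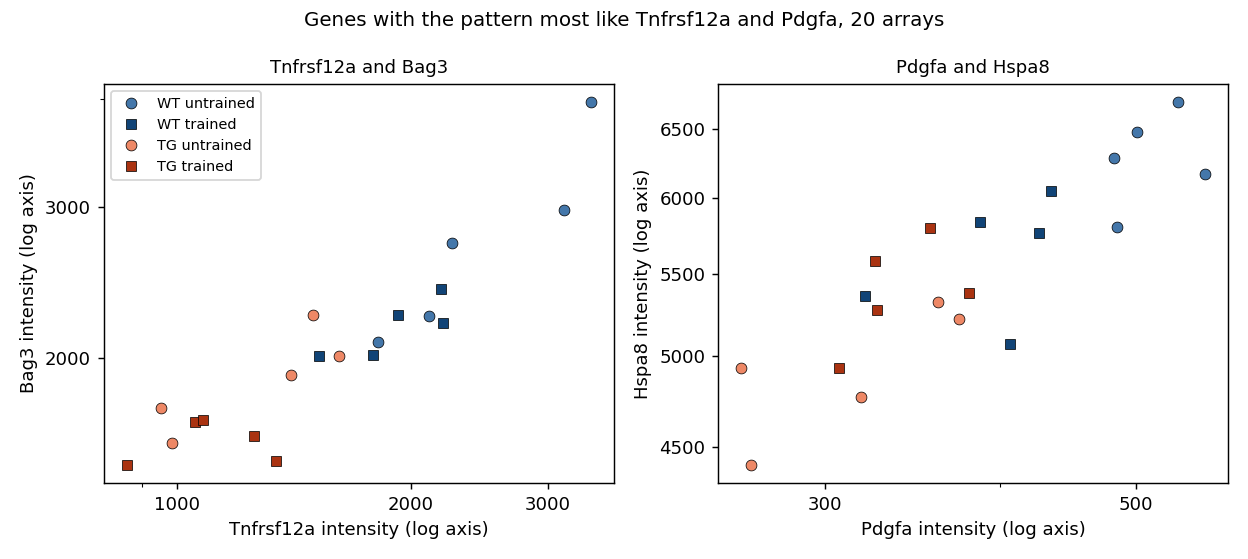
Intensity on log axes of Bag3 against Tnfrsf12a and of Hspa8 against Pdgfa, with 1 point per array for 20 arrays and the groups by colour and shape. Bag3 is higher on arrays with more Tnfrsf12a (r = 0.92), and Hspa8 on arrays with more Pdgfa (r = 0.86).

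For Pdgfrb the most alike genes were Jund, an AP-1 subunit (0.85 and 0.66), Sat1, an enzyme of polyamine breakdown (0.85 and 0.74), Col4a2, a collagen chain of basement membranes (0.84 and 0.69), Atp6ap2 (0.83 and 0.65) and Pttg1ip (0.81 and 0.79). Col4a2 averaged 617 ± 140.2, 664 ± 99.4, 555 ± 65.3 and 475 ± 56.2 in the WTUT, WTT, TGUT and TGT mice. For Pdgfb they were Fam20c, Chil4, Myo15b, Prmt6 and Creld1, with r from 0.80 to 0.82. For Pdgfra they were Pik3ap1, Hivep3, Tnfrsf4, Apoc2 and Ap1s1, with r from 0.71 to 0.77.

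Few other genes of the TWEAK and PDGF pathways were called, and nothing is read from single calls for training averaged over genotypes, where 4.99% of all probe sets were called. Of 14 tested TWEAK pathway genes, limma called Birc2, an inhibitor of apoptosis that binds TRAF adaptors, which fell with training averaged over genotypes by 0.14 ± 0.04 on the log2 scale (adjusted p = 0.0435). None of the 14 passed for the transgene in trained mice (median 0.03, against 0.01 over all 8486 genes tested). Of 23 tested PDGF pathway genes, 11 other TNF receptor genes and 17 related receptor tyrosine kinases, none passed in any of the 6 limma contrasts, with medians of 0.04, -0.01 and 0.00 for the transgene in trained mice. The 27 tested early response genes, which growth factor receptors are known to induce, had no call either. In that contrast 19 of the 27 lay below 0, with a median of -0.15, and 19 of 27 did so in untrained mice, with a median of -0.10. For training averaged over genotypes 20 of 27 lay below 0, with a median of -0.08. The lean below 0 was thus seen for training as well as for the transgene, and it was not tested.

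Markers of the cells that carry these receptors did not all follow them. Of 12 pericyte and smooth muscle markers, 9 passed the filter. The summed intensity of all 12 was 5418 to 6095 in trained wild-type and 4960 to 5924 in trained transgenic mice. These overlapped, 5 of the 9 genes lay below 0 with a median of -0.02, and none was called. Their part in the Pdgfrb difference was not tested. The summed level of 12 endothelial markers did separate these groups, at 4104 to 4501 against 3601 to 4092, with the transgenic mice lower. The log2 differences of 5 of the 10 that passed the filter lay below 0 in trained mice. In untrained mice the endothelial sums overlapped, at 3755 to 4595 in wild-type and 3614 to 4335 in transgenic mice. The part of the endothelial sum in the Pdgfrb and Tnfrsf12a differences was not tested. Cldn5, an endothelial tight junction protein, fell with training averaged over genotypes by 0.54 ± 0.14 (limma adjusted p = 0.0359), the only endothelial call among 10, against 4.99% of all probe sets.

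The summed level of 16 fibroblast and progenitor markers, 13 of them past the filter, overlapped between all groups, from 6275 to 11483. Col3a1, a fibrillar collagen chain, rose with training averaged over genotypes by 1.02 ± 0.28 (limma adjusted p = 0.0400), and no other of the 13 was called, beside the same 4.99%. All 7 macrophage markers past the filter lay below 0 for the transgene in trained mice, with a median of -0.15 and no call. The sums of all 12 macrophage markers were 2014 to 2577 in trained wild-type and 1568 to 2223 in trained transgenic mice, which overlapped. The untrained macrophage sums overlapped too, at 1632 to 1893 in wild-type and 1656 to 1957 in transgenic mice. The part of macrophages in the Tnfrsf12a difference was not tested.

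The 11 satellite cell and myoblast markers, cells in which Tnfrsf12a is known to be expressed, included 7 past the filter. The sums of all 11 were 1871 to 2981 in trained wild-type and 2133 to 2516 in trained transgenic mice. These overlapped, 4 of the 7 genes lay below 0, and their part in the Tnfrsf12a difference was not tested. None of the 7, of the 5 platelet markers or of the 4 Schwann cell markers was called in any limma contrast. Among the 12 muscle fibre markers, the calcium channel gene Ryr1 fell with training averaged over genotypes by 0.10 ± 0.02 (limma adjusted p = 0.0206), and the other 11 were not called, again beside 4.99% of all probe sets.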

How the data were processed

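Each of 20 arrays gave 22690 probe set values. As read from the deposited table, the values are intensity on a linear scale from 0 to 19078, with array medians from 156.7 to 174.9. Whether the arrays had been scaled to each other is not stated. The sources used here do not name the summary method, a scaling method or a genome build. The table has 59 zeros and 1745 empty cells (0.385%), of which 822 lie on the array of wtt-137 and 386 on that of TGT-133. Empty cells were treated as missing in every fit, and no member row has one. For arrays, their number limits the precision.

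Values were converted to log2 after adding 66.72 (the table's 20th percentile). The 64 control probe sets were dropped, and a filter on the mean over all arrays at the 40th percentile (log2 7.59) left 13575. Gene symbols came from the platform annotation: 20380 probe sets carry 1 symbol, 691 several and 1555 none. limma 3.58.1 in R 4.3.3 fitted 4 group means with a variance trend (16 residual and 3.47 prior degrees of freedom), two-sided, with Benjamini-Hochberg adjustment over the 13575 and a threshold of 0.05. The limma fit was tested on simulated data. Exact permutation tests used all 252 splits of 5 against 5, or 63504 within genotype, and correlations used 100000 resamples within groups.

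Members, lists and tests were chosen with earlier results of these data known. A gene is represented by its brightest probe set, with its other probe sets beside it. From each list, passing genes were named, up to 3 per direction and contrast, with the 5 most alike genes of each member past the filter and the other ligands. H2-K1 and Myh7 were added after their values were seen. Of 225 listed genes, 204 have a probe set of their own and 159 were tested. Summed marker levels took every listed gene with a probe set of its own, past the filter or not, and an empty cell was filled with the group's mean. The alternatives were quantile normalization, median centring, other constants and filters, other variance models, array weights, fits on only the groups being compared, the other probe sets, and arrays left out.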

Additional observations from a re-analysis of the deposited data

Results flagged for a closer look

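Of 48 sets of 5 mice (12 probe sets in 4 groups), 3 held a mouse whose gap to the nearest of the others was more than 0.71 of the group's range, and chance flags about 1 in 20. Pdgfa 1449187_at read 214.3 in TGUT-145, where the next mouse read 163.1. Pdgfb 1450414_at read 339.4 in TGUT-146, where the next read 288.4. Pdgfra 1421917_at was lowest in WTT-144 at 175.2, where the next read 210.5. Each was flagged for 1 mouse standing apart on 1 of the gene's probe sets, and the comparisons keep all mice.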

How the results depend on the processing

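No paired analysis was possible because the mouse numbers in the titles are unique to each mouse and the groups share none.

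The share of tested probe sets called by limma depended on the settings. For training in transgenic mice (0.309% as reported) it was 1.13% with quantile normalization, 0.081% with median centring, 0.508% with an added constant of 1, 0.0265% without a filter, 1.09% with a filter at the 60th percentile, 0.479% without a variance trend, 0.494% with robust variances, 18.2% with array weights, 0.00737% on only the groups compared and 0.921% without wtt-137 and TGT-133. For training averaged over genotypes (4.99%) it was 3.01% with median centring, 1.98% without a filter, 20.4% with array weights and 3.01% without wtt-137 and TGT-133. For the transgene in trained mice (0.0516%) it was 0.144% with the 60th percentile filter, 7.48% with array weights, 0.192% on only the groups compared and 0.0884% without wtt-137 and TGT-133. For the transgene in untrained mice (0.11%) it was 0.692% with array weights and 0% on only the groups compared (899 at an unadjusted p under 0.05). Array weights gave 0.678% for training in wild-type mice and 0.0516% for the interaction. With each array left out in turn, the shares ran from 0.0147% to 5.63%, 2.06% to 9.47%, 0.0147% to 1.05%, 0.0147% to 0.192% and 0% to 0.0295%, for training in transgenic mice, training averaged, the transgene in trained and in untrained mice, and training in wild-type mice. The highest share came without wtt-137 for the transgene in trained mice, without WTT-144 for training in wild-type mice, and without TGUT-145 for the other three. The causes were not tested. A fit on only the groups compared cannot be made for the averaged contrast and the interaction, which use all groups.

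Pdgfb sat near 0 and turned sign. For the transgene in trained mice it was -7e-04 with median centring, -0.0371 with array weights, -0.0139 without wtt-137 and TGT-133, and -0.0241 to 0.0394 with each array left out. For training averaged over genotypes it was -0.0152 with array weights, -0.0195 without wtt-137 and TGT-133, and -0.0376 to 0.0294 with each array left out. Other reversals came with the second probe set, for Pdgfa (transgene in trained mice, 0.0926) and Pdgfra (training averaged, -0.0687), and, with no test, for Pdgfra in the transgene in untrained mice (0.1052 against -0.0946), training in wild-type mice (-0.0011 against 0.1089) and training in transgenic mice (-0.1364 against 0.1048). Among pairs within groups, Tnfrsf12a and Pdgfb turned to r = -0.0283 with median centring, and without the 2 farthest arrays Tnfrsf12a and Pdgfra turned to 0.0880 and Tnfrsf12a and Pdgfrb to -0.301. The Pdgfb and Pdgfrb correlation was -0.585 without the 2 farthest arrays and -0.423 without untrained wild-type mice, neither passing after adjustment, and -0.847 to -0.634 with each array left out; all but the first of these checks were chosen after seeing the data, as was its other probe set pair. The Tnfrsf12a difference in trained mice kept its direction in all 32 alternatives, between -0.91 and -0.66, and passed in 2 of them (-0.7016 with array weights, -0.7506 on only those groups). Pdgfrb kept its direction in all 31, and passed with array weights (-0.1648).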
